A study of Mus musculus with 3 samples.

Results

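The genes described here are the numbered zinc finger (Zfp) genes whose RNA was found in mouse embryonic stem (ES) cells. They were selected on their measured level: an autosomal protein-coding gene of GENCODE M21 counted as a member when its symbol was Zfp followed by digits and its poly(A) sites summed to at least 1 RPM (reads scaled to the total reads of the library) as the mean of the libraries. Sites were summed on the gene's strand in its exons and up to 1 kb past its end, and Zfp42, Zfp281 and Zfp352 were left out. This gave 271 members of 355 such genes, among 20807 autosomal protein-coding genes in all. The other 84 numbered genes lay under 1 RPM, and 11364 autosomal protein-coding genes with other names or left out by the rule reached it.

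The RNA came from F121-9, a hybrid ES cell line of the Cast and 129 mouse strains at passage 14, with 500 ng of RNA per library. PAS-seq, done by the QuantSeq method, reads the 3′ end of polyadenylated RNA, so a read marks where a transcript was cut and its tail added. There was 1 group of 3 libraries, biological replicates 1, 2 and 3, and no treatment or second genotype. Whether the replicates were grown as separate cultures is not stated, so the spread between them may be partly technical. Reads at listed sites numbered 10147672, 13513327 and 13040620, and replicate 3 had only 216 reads off the autosomes. All 8 ES cell markers searched were above 10 RPM, from Zfp42 at 20.8 RPM to Tdh at 909 RPM on average. Of 5 fibroblast feeder markers, Thy1 was at 84.4 RPM, Col1a1 and Col1a2 were at 2.27 and 1.43 RPM, Lum was at 0.142 RPM, and Dcn had no read. Krt7, at 10.3 RPM, was the highest of the endoderm, mesoderm, neuroectoderm and trophoblast markers.

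A classical zinc finger is a short fold in which cysteines and histidines hold a zinc ion and the fold contacts DNA, and sometimes RNA. Many of these proteins carry fingers in a row behind a KRAB domain. KRAB binds Trim28, which brings in the histone methyltransferase Setdb1 and HP1 proteins and silences the bound DNA. In ES cells such proteins keep retroelements silent and protect imprinted marks. Other numbered Zfp proteins have no KRAB domain and serve in transcription, RNA handling or ribosome assembly.

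The main 3′ ends of 4 abundant members and of Zfp57, whose level varied most between libraries among well-covered members, are shown first, because reads at such ends are what was counted. Each line gives 30 bases of the mm10 (GRCm38) reference on the RNA strand, read from the RefSeq copy of that assembly, and the capitals mark the hexamer by which the site was classed: AATAAA where present, otherwise ATTAAA, otherwise another of the 18 hexamers searched. Zfp706 lies at chr15:36999004-36999033 (minus strand), Zfp979 at chr4:147611939-147611968 (minus), Zfp428 at chr7:24515637-24515666 (plus), Zfp568 at chr7:30028254-30028283 (plus) and Zfp57 at chr17:37010606-37010635 (plus).
Zfp706: taatgtcttATTAAAgaagatgttaaaacg
Zfp979: tgtattgtaAATAAAgctgaatgattcacc
Zfp428: gtgaagggctgAATAAAagccagattctac
Zfp568: aaAATAAAgtaaatcatttcagaaacgtac
Zfp57: ACTAAAagaaggggaggggaggtcaaactg
The site is the last base of each line. Zfp979, Zfp428 and Zfp568 carry the standard AATAAA, Zfp706 its commonest variant ATTAAA, and Zfp57 the rarer ACTAAA.

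Levels were low as a rule, with a short list of abundant genes. A transcript gives reads only at its 3′ end, whatever its length, so levels in RPM were set side by side between genes without a length correction. The median member was at 8.41 RPM, with quartiles of 3.66 and 20.6 RPM, beside a median of 19.5 RPM over the other 11364 genes. In all, 125 members (46.1%) reached 10 RPM and 11 (4.06%) reached 100 RPM, beside 64.7% and 14.1% of the other genes. Since the level chose the members, these values are a description. Members took 0.579% ± 0.0336 (SD, n = 3) of all reads, and the 12 highest held 38.1% of that. This spread includes one of scaling: replicates 1 and 2 had 821582 and 1012989 reads off the autosomes, and replicate 3 had 216. Of reads at autosomal sites, members had 62236 of 9326090, 82796 of 12500338 and 86844 of 13040404 in replicates 1, 2 and 3. As deposited, 113 of 271 members were highest in replicate 3, and 94 when scaled to autosomal reads. A read was found in every library for 265 of 271 members. In bulk RNA, fewer cells with a transcript and less of it per cell cannot be told apart.

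Zfp706, a small protein whose loss delays the exit of ES cells from self-renewal, was the highest at 387, 405 and 423 RPM in replicates 1, 2 and 3. Zfp979, a KRAB gene, followed at 315, 286 and 323 RPM. Zfp428 was at 228, 225 and 287 RPM. The order of these 3 genes was the same in every library, though the highest value of Zfp428 reached the lowest of Zfp979. Zfp207, which helps assemble the mitotic spindle, was next at 180, 178 and 192 RPM. Zfp568, a KRAB gene that silences a placental promoter of Igf2, was at 139, 173 and 186 RPM. Zfp106, an RNA-binding protein, was at 163, 127 and 191 RPM. Zfp207 was the highest of these last genes in every library, though their ranges overlapped, and the order of Zfp568 and Zfp106 changed between libraries. The remaining 6 of the 12 highest were Zfp593, Zfp622, Zfp219, Zfp330, Zfp512 and Zfp110, from 157 down to 99.7 RPM on average.

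At the other end, the 5 members just inside the threshold were Zfp407, Zfp53, Zfp536, Zfp521 and Zfp937, from 1.18 down to 1.04 RPM. The 5 genes just outside were Zfp963, Zfp791, Zfp52, Zfp287 and Zfp697, from 0.997 down to 0.898 RPM. Single libraries crossed the line in both sets: Zfp521 was at 2.17, 1.0098 and 0.0711 RPM, and Zfp963 at 1.17, 1.82 and 0 RPM.

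**Figure D1:**
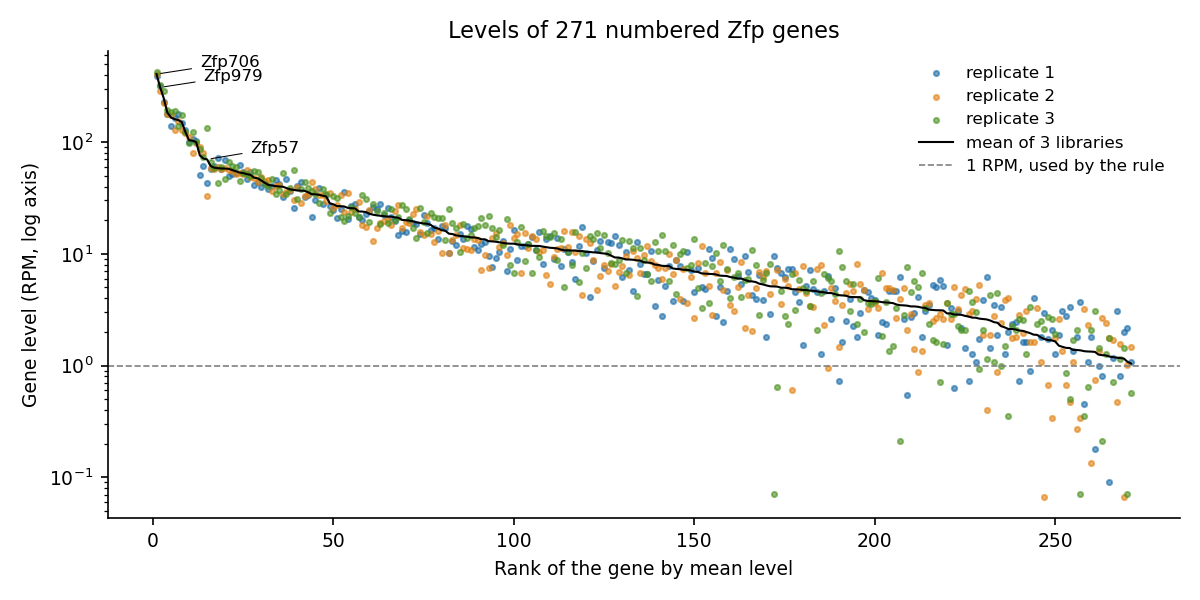
Level of each of the 271 members in RPM (log axis) against its rank, with a point per library, the mean as a black line and the 1 RPM line of the rule dashed; points without a read are not drawn. The libraries lie close together for the abundant genes and spread over more than 10-fold near 1 RPM.

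The spread between libraries narrowed with level. The median coefficient of variation over 3 libraries was 65.0% for the 52 members from 1 to 3 RPM and 11.6% for the 11 members at 100 RPM or more, beside 79.5% and 10.8% for other genes in the same bands. One well-measured member stood apart from this. Zfp57, a KRAB protein that keeps imprinted methylation in place, was at 43.3, 33.0 and 134 RPM, so replicate 3 lay far above the others. Most of its reads were at 1 site past the stop codon, which had 35.5, 30.5 and 129 RPM. Zfp668, at 2.80, 5.99 and 14.6 RPM, and Zfp212, at 9.47, 7.47 and 21.97 RPM, were also highest in replicate 3. Zfp689, at 17.2, 4.31 and 10.2 RPM, was highest in replicate 1, and Zfp81 was at 3.43, 7.94 and 12.7 RPM. These 5 had the largest spread beyond counting error among 144 members with a mean of 100 reads or more. The summed feeder markers were at 81.4, 50.6 and 133 RPM in replicates 1, 2 and 3, nearly all from Thy1, with Dcn at 0. Their part in the Zfp57 values was not tested.

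Of the genes known to silence imprinted genes or retroelements, 8 were listed, and all 8 were members. The list of 8 was chosen with levels of these data known, so its count is no independent evidence. Zfp809, which silences proviruses through their primer binding site, was at 41.9, 41.3 and 37.0 RPM. Zfp445, which acts with Zfp57 at imprinted regions, was at 15.5, 19.3 and 25.03 RPM. Zfp932 and Zfp819, both repressors of retroelements, averaged 27.7 and 11.8 RPM. Zfp708 and Zfp429 were the lowest, at 6.38 and 2.75 RPM. Zfp568 was the highest of the 8 in every library, and Zfp57 lay above Zfp809 in replicates 1 and 3 and below it in replicate 2.

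The machinery that KRAB proteins recruit was at higher levels than most members. Of 14 genes listed, 13 reached 10 RPM and 9 reached 100 RPM, with a median of 142 RPM. Over all genes outside the members at 1 RPM or more, these shares were 64.7% and 14.1%. Trim28, the co-repressor that binds KRAB, was at 1476, 1479 and 1472 RPM, above every member in every library. Setdb1, the methyltransferase, was at 37.2, 48.5 and 30.7 RPM. The maintenance methylation genes Uhrf1 and Dnmt1 averaged 552 and 143 RPM, and Pphln1, a part of the HUSH silencing complex, was the lowest at 1.76 RPM.

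Among the role lists of numbered Zfp genes, the one for RNA, ribosomes, ubiquitin, SUMO or the spindle had the highest median, at 54.7 RPM. All 11 reached 10 RPM and 4 reached 100 RPM, beside 46.1% and 4.06% of all members. This list, like the other role lists, was chosen with levels of these data known, so its rank and counts are no independent evidence. Zfp593, a ribosome assembly factor, was at 177, 155 and 140 RPM, and Zfp622, which helps mature the large ribosomal subunit, was at 149, 129 and 175 RPM. Zfp598, the ubiquitin ligase that marks stalled ribosomes, averaged 71.2 RPM. Zfp36, which hastens mRNA decay, was the lowest at 8.03, 10.9 and 15.9 RPM.

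The 16 members listed for chromatin and transcription had a median of 17.6 RPM, and 15 of them reached 10 RPM, beside 46.1% of all members. Zfp219 led at 127, 119 and 123 RPM. Zfp296, which acts with Klf4 in pluripotent cells, was at 50.9, 90.7 and 86.0 RPM. Zfp410, the activator of Chd4, was at 18.8, 22.8 and 17.0 RPM. The lowest was Zfp827 at 1.80, 8.15 and 2.35 RPM.

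Genes listed for lineages outside the ES cell were mostly low. Of 8, 6 were members and 1 reached 10 RPM. Zfp516, known from brown fat, was that exception at 61.1, 57.4 and 58.4 RPM. Zfp423, known from fat cell precursors, was at 2.44, 1.82 and 2.06 RPM, while Zfp503 and Zfp750 lay under 1 RPM at 0.465 and 0.113 RPM.

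Protein sequence differed with level across the 355 numbered genes. The core of the KRAB A-box, searched as leucine and tyrosine, then valine and methionine, then glutamate at fixed spacing with any residue between, was present in 127 of 271 members (46.9%) and in 57 of 84 genes under 1 RPM (67.9%). The median level was 3.12 RPM over the 184 genes with the core and 9.27 RPM over the 171 without. This order held in each library, at 2.66 against 8.03 RPM, 3.00 against 8.15 RPM and 2.60 against 10.1 RPM. Members with the core were 69.0% of their class, and those without were 84.2% of theirs. The 17 genes under 1 RPM whose last 50 bases occur more than once in the genome, taken up below, all had the core. Of these, 15 had no read, which cannot be told apart from reads that could not be placed. The shares and medians by KRAB core carry this limit. Of the 11 members at 100 RPM or more, 2 had the core, Zfp979 and Zfp568. The pattern was widened after the data were seen; a narrower one found 67 members (24.7%) and 20 of the genes under 1 RPM (23.8%), so the difference in share rests on the wider pattern.

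**Figure D2:**
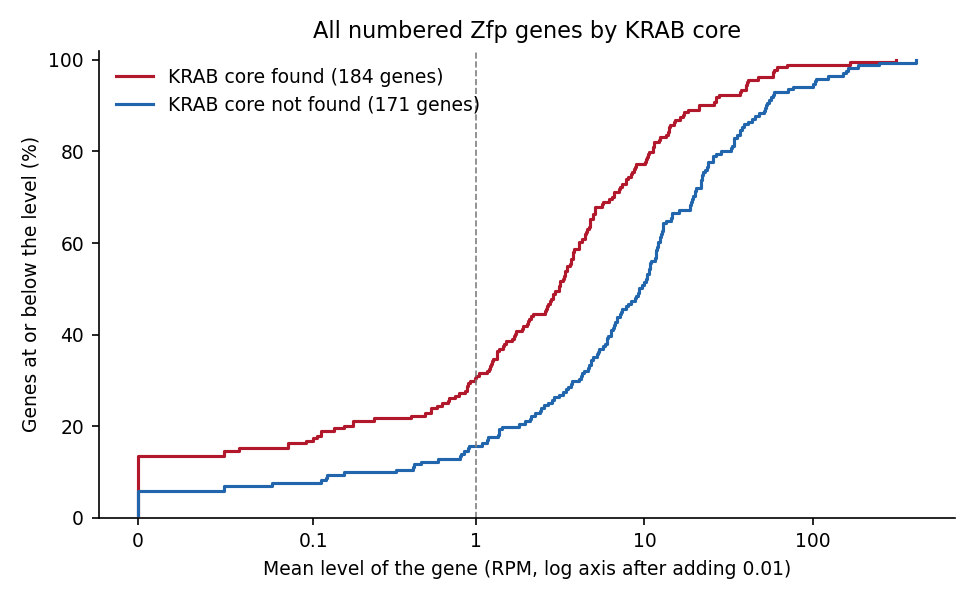
Cumulative share of all numbered Zfp genes (%) against mean level (RPM, log axis after adding 0.01), with and without the KRAB core; the dashed line is 1 RPM. The line of genes with the core lies to the left, with medians of 3.12 and 9.27 RPM.

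The number of fingers said less. Members held a median of 10 fingers, with quartiles of 7 and 13.5, and genes under 1 RPM held a median of 11. Zfp142 had the most with 36. No finger of the classical pattern was found in 7 members, among them Zfp36 and Zfp330, and Zfp706 and Zfp428 had 1 each. Of 2869 fingers in members, 84.3% were encoded in the last coding exon, and in 204 of the 264 members with fingers (77.3%) that exon held all of them.

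Numbered Zfp genes lie in runs along the chromosomes. With under 500 kb between neighbouring starts, 248 of 355 genes fell into 45 runs, and 107 stood alone. Genes standing alone had a median of 8.69 RPM, those in runs of 2 to 5 genes 3.69 RPM, and those in runs of 6 or more 4.54 RPM. The KRAB core was in 21 of 107 genes alone and in 106 of 159 genes in the long runs.

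The largest run held 23 genes over 2.59 Mb of chromosome 17, of which 14 were members. Its highest was Zfp229 at 25.3, 33.5 and 21.2 RPM, and 3 genes had no read. The run on chromosome 13 held 19 genes, 17 of them members, led by Zfp459 at 40.1, 36.1 and 46.2 RPM. The run on chromosome 4 was the most uneven: 11 of its 18 genes were members and 6 had no read, its median was 1.85 RPM, and yet it held Zfp979 at 308 RPM. The next gene of that run, Zfp990, was at 32.3, 34.4 and 52.8 RPM. Similar cases lay on chromosome 7, with Zfp428 at 247 RPM in a run of 14 genes with a median of 1.74 RPM, 9 of them members, and Zfp568 at 166 RPM in a run of 15 genes with a median of 4.97 RPM.

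**Figure D3:**
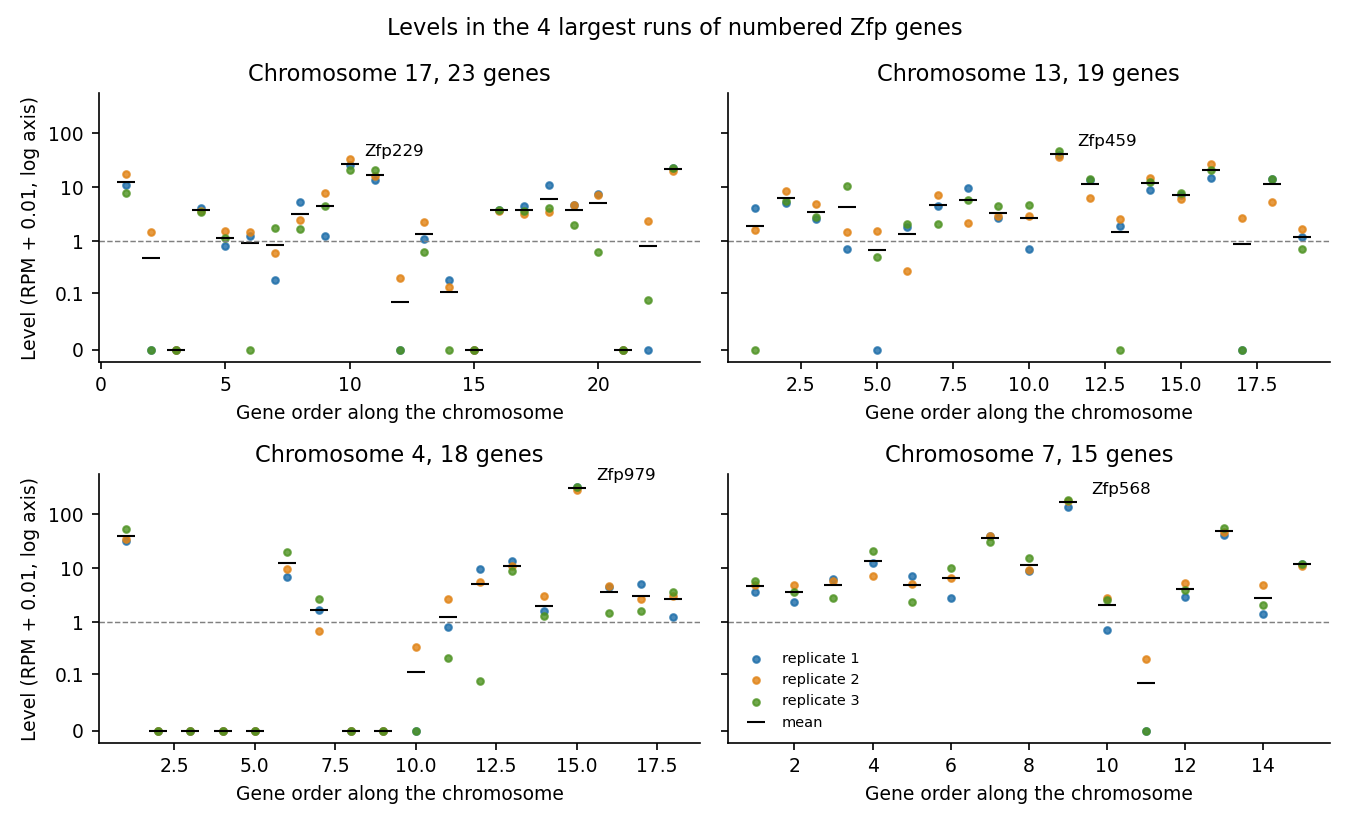
Level of each gene (RPM + 0.01, log axis) in the 4 largest runs, in order along the chromosome, with a coloured point per library and a black dash for the mean; the dashed line is 1 RPM. Most genes lie between 1 and 30 RPM, and Zfp979 and Zfp568 lie above their neighbours in every library.

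Near-identical copies limit what can be read from some of these genes. The last 50 bases before the main site, or before the annotated end where there was none, occur more than once in the genome for 5 members (1.85%) and for 17 of 84 genes under 1 RPM (20.2%). Of the 35 numbered genes without a read, 15 had such repeated ends, 6 of them on chromosome 2 and 6 on chromosome 4. How reads that match several places were treated is not given in the sources used here, so a level of 0 at such a gene cannot be told apart from reads that could not be placed. The 5 members with repeated ends were Zfp935, Zfp534, Zfp984, Zfp972 and Zfp988. All reads of Zfp935, and over 20% of those of Zfp953 and Zfp988, lie at sites shared with an overlapping gene, so their levels are uncertain too. Smaller shared parts were found in other members, the largest in Zfp652 with 4.68 of 43.2 RPM.

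Reads of members lay outside the usual place more often than those of other genes. In members 90.7% ± 0.666 (SD, n = 3) of reads lay in a terminal exon, against 96.7% ± 0.216 in other genes. Exons before the last held 2.85% ± 0.395 (SD, n = 3), against 1.39% ± 0.129. Much of that came from 1 gene: a Zfp106 site in an earlier exon had 103, 83.3 and 96.2 RPM. All members summed to 5614, 5573 and 6175 RPM. The share without Zfp106 was not computed. Introns held 4.66%, 4.45% and 4.67% of member reads in replicates 1, 2 and 3, against 1.37%, 1.17% and 1.22%. The difference was 3.34 ± 0.0985 percentage points (SD, n = 3) and positive in 3 of 3 libraries. The exact two-sided sign-flip test over 3 libraries cannot go below p = 0.25, which is the value it gave. Of members with 50 reads or more, 49 of 264 (18.6%) had at least 10% of their reads in introns, beside 12.6% of the other genes. At least 30% was reached by 11 members (4.17%) and by 3.84% of the other genes. The median intronic share of a gene was 0.811% in members and 0.454% in other genes. Shares pooled over reads, here and for the coding part below, weigh abundant genes most, and the sets were not matched on level.

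A single gene held much of the intronic share. Of the reads assigned to Zfp808, on chromosome 13, 98.3% lay in introns. Assignment was by position, so Zfp808 RNA cut in an intron and RNA of another transcript there cannot be told apart. The main intronic site of Zfp808 carried 88.0, 100.9 and 89.2 RPM, while its exonic and downstream sites together had 1.26, 1.75 and 1.92 RPM. The site has an ordinary signal, AATAAA, at chr13:62176174-62176203 on the plus strand, as the capitals show.
Zfp808: acatcatgAATAAAattttctttgctgacc
By the rule, which counts exons only, Zfp808 was at 1.64 RPM on average, while this 1 site, at 92.7 RPM, lay between the levels of Zfp110 and Zfp296. Without Zfp808 the intronic share of members was 3.04% ± 0.308 (SD, n = 3), and the difference from other genes fell to 1.79 percentage points. Next came Zfp988, Zfp982, Zfp981 and Zfp985, with 76.5%, 61.7%, 52.5% and 40.1% of reads in introns, and all of these lie in the run on chromosome 4. Intronic reads of Zfp982 numbered 170, 366 and 170, and those of Zfp988 numbered 57, 67 and 0.

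Reads inside the coding part of the terminal exon were also more common. They made up 2.96%, 2.64% and 2.41% of member reads, against 0.939%, 0.833% and 0.891% in other genes. The difference was 1.78 ± 0.254 percentage points (SD, n = 3) and positive in 3 of 3 libraries, with an exact sign-flip p of 0.25. A cut there leaves the RNA without its stop codon. The share of at least 10% was reached by 29 of 264 members (10.98%) and by 2.75% of the other genes. By the pattern widened after the data were seen, 23 of these 29 had the KRAB core, as did 124 of the 264. All reads of Zfp978 and Zfp534 were of this kind, and 81.7%, 77.5% and 72.2% of those of Zfp266, Zfp977 and Zfp984. Zfp978 rested on 107, 83 and 1 reads, and Zfp534 has a repeated end.

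The coding sites were of different kinds, of which 3 are shown. Zfp977 has AATAAA before its site at chr7:42580720-42580749 (minus strand), with 2.80, 2.42 and 3.20 RPM. Zfp982 has none of the 18 hexamers before its site at chr4:147512546-147512575 (plus), with 13.0, 10.9 and 7.54 RPM, and its capitals mark part of the DNA that encodes the linker between fingers. For Zfp800, 10 bases before and 20 after the site are shown at chr6:28244193-28244222 (minus), and the capitals mark every A after the site.
Zfp977: tctccaaataAATAAAagaacagacactgc
Zfp982: atcagaaaattcatacaggaGAGAAACCtt
Zfp800: gtcacattcgAAAAgtAcAcAAAAAAAAgA
The 20 bases after the Zfp800 site hold 15 A. An oligo(dT) primer can bind such a stretch inside an RNA, so a site of this kind may not be a true end, which was not tested. That site had 28.5, 26.7 and 27.7 RPM and 1103 of the 6393 coding reads of members. Without Zfp800 the coding share was 2.22% ± 0.252 (SD, n = 3) and the difference 1.34 percentage points. It was 1.34 also when every A-rich site was dropped from members and other genes alike.
Over all 143 coding sites of members, 23 (16.1%) had AATAAA and 66 (46.2%) had none of the 18 hexamers. For the 3316 coding sites of other genes these shares were 3.59% and 74.5%.

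**Figure D4:**
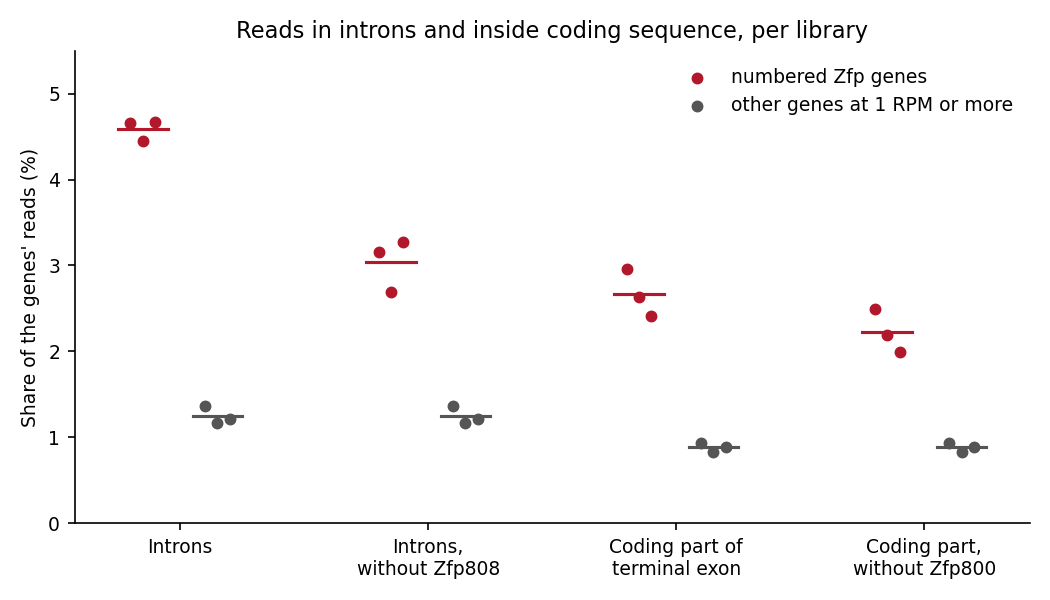
Share of reads (%) in introns and in the coding part of the terminal exon, with a point per library and a bar for the mean, for members (red) and other genes at 1 RPM or more (grey), with and without the gene named. The 3 red points lie above the 3 grey points in each column.

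At their main site members used the usual signals. Of 270 members with a site of their own, 162 (60%) had AATAAA within 40 bases before the main site, 39 (14.4%) had ATTAAA, 54 (20.0%) had another of the 18 hexamers and 15 (5.56%) had none. The shares in other genes were 63.7%, 15.5%, 14.7% and 6.12%. Within 30 bases instead of 40, 144 members (53.3%) had AATAAA and 28 (10.4%) had none of the hexamers. In a control window from base 100 after the site, 10 members (3.70%) had AATAAA and 3 (1.11%) had ATTAAA. Another of the hexamers was found there in 53 (19.6%), close to the 20.0% at main sites. Weighted by reads, AATAAA preceded 66.1% ± 0.193 (SD, n = 3) of member reads and 67.7% ± 0.182 of those of other genes, a difference of -1.63 points with an exact sign-flip p of 0.25.

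Among members without any of the hexamers, Zfp106 was the highest. Its main site had 103, 83.3 and 96.2 RPM and lay in an exon before the last, while the end of the gene had 25.4, 17.0 and 44.1 RPM after an AATAAA. The main site of Zfp936 by mean level also lay in an earlier exon, at 19.8, 13.1 and 15.7 RPM. A site in its last exon, with 22.9, 16.4 and 6.11 RPM, was higher in replicates 1 and 2, so this choice of main site rests on replicate 3. Zfp800, Zfp35, Zfp982 and Zfp975 followed. Main sites past the stop codon lay a median of 853 bases from it in 245 members, with quartiles of 392 and 1667, beside 647 bases in other genes. The main site held a median of 79.9% of a member's exonic reads, against 90.04% in other genes.

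Members with more than 1 site in a terminal exon let the use of an earlier and a later site be compared. In 146 members the first (proximal) and the last (distal) site along the exon, each with at least 5% of the reads, were compared within each library. The proximal site lay inside the coding sequence in 27 of these pairs (18.5%), beside 4.77% over all genes tested. Such pairs do not compare a short with a long 3′ end past the stop codon. The distal site was used more in 39 (26.7%) and the proximal site in 14 (9.59%), at an adjusted p under 0.05 and at least 2-fold by limma. Over all 5120 genes tested the distal site was called in 33.8% and the proximal site in 14.5%. On the log2 scale the ratio of the distal to the proximal site had a median of 1.16 in members and 1.33 over all genes tested. The order of these medians changed with the setting. Among genes with at least 200 reads they were 1.57 and 1.32, and without replicate 3 they were 1.43 and 1.27. With at least 200 reads, 39 and 13 of 95 members were called distal and proximal, beside 41.8% and 17.9% of all genes. The sites lay a median of 1206 bases apart in members and 859 over all genes. AATAAA preceded 92 of the 146 distal sites and 46 of the proximal ones, which were 63.0% and 31.5% beside 60.2% and 31.1% over all genes.

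Zfp706 used its distal site for 85.2%, 83.5% and 86.7% of the reads of the pair, with a log2 ratio of 2.52 ± 0.177 (SE) and a limma adjusted p of 1.57e-13. Zfp207 did so for 85.9%, 86.7% and 81.7%, with AATAAA at both its sites. Zfp330 did so for 92.6%, 93.3% and 96.0%, and its proximal site lay inside the coding sequence. Zfp655 and Zfp91, a ubiquitin ligase, were at 89.97% ± 0.310 and 88.4% ± 2.92 (SD, n = 3). Zfp710 was at 89.6% ± 6.95 (SD, n = 3), and Zfp106 and Zfp598 were less one-sided, at 70.4% ± 9.65 and 70.0% ± 1.92 (SD, n = 3). In none of these 8 did a library fall to 50% or less.

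Zfp593, the ribosome assembly factor, was the most abundant member with the opposite choice. Its distal site had 7.57%, 11.1% and 10% of the reads, with a log2 ratio of -3.26 ± 0.240 (SE) and a limma adjusted p of 4.77e-13. The first sequence, at chr4:134244639-134244668 (minus strand), ends 8 bases before the proximal site and carries AATAAA, and the second, at chr4:134243307-134243336, ends at the distal site and carries none of the 18 hexamers.
Zfp593 proximal: AATAAAggacctggacaagagggcacacct
Zfp593 distal: tataatgttatgttaaaaaattttaactac
Zfp516 used its distal site for 28.9%, 18.3% and 17.0% of reads and Zfp704 for 15.9%, 32.2% and 16.3%. Zfp870, at 14.98%, 7.38% and 0%, Zfp952, at 11.8% ± 2.15 (SD, n = 3), and Zfp748, at 16.2% ± 7.84 (SD, n = 3), were lower. Zfp606 ranged from 0.386% to 27.3%. Zfp326, which acts in splicing, had 14.5%, 0% and 25%, with a limma adjusted p of 0.0497 that passed only just.

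**Figure D5:**
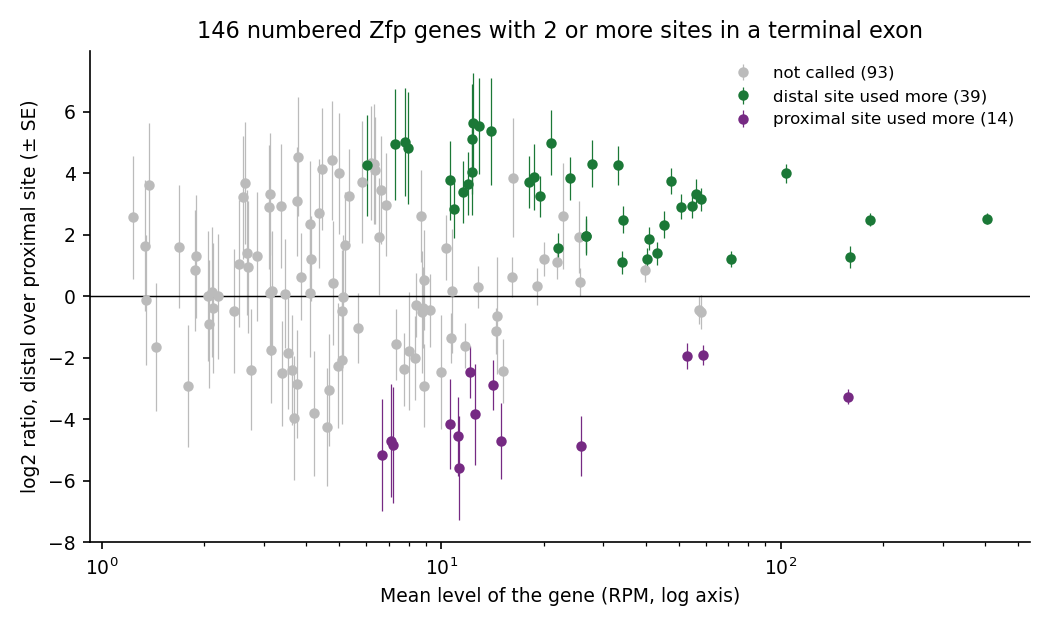
log2 ratio of the distal over the proximal site (± SE) against mean level (RPM, log axis) for the 146 members tested, coloured by call. The 39 green points lie above and the 14 purple points below the line of equal use, and grey points were not called.

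Some calls rested on single libraries or on the choice of sites. Zfp106 was no longer called by limma without replicate 3 (adjusted p = 0.0737), nor Zfp748 without replicate 2 (adjusted p = 0.113) or replicate 3 (adjusted p = 0.0919). Zfp326 was not called without any one of the libraries (limma adjusted p from 0.0565 to 0.424). With edgeR on recovered reads neither Zfp748 nor Zfp326 was called (adjusted p = 0.0544 and 0.168). When sites with 1% of the reads were admitted, Zfp704, Zfp606 and Zfp326 turned to log2 ratios of 1.78, 1.61 and 1.17 and Zfp516 was at -1.29, none of them called by limma. In the same setting the ratios of Zfp706, Zfp655 and Zfp106 were 6.47, 6.91 and 3.90. With sites of any terminal exon, that of Zfp710 was 1.18 and that of Zfp106 was 2.88. Without replicate 2 the calls fell to 21 distal and 7 proximal members, and without replicate 3 to 32 and 8. TMM factors computed over the 6 columns of sites lower the ratio of every gene by construction, the median of all genes going from 1.33 to 0.51. They gave 22 distal and 23 proximal members, beside 1079 and 1052 of all genes, so these counts say nothing about members in particular. Of the 53 members called, 17 had a library without a read at 1 of the sites, where the ratio rests on the pseudocount of 0.05 RPM.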

How the data were processed

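The deposited values are RPM per poly(A) site in 178115 sites, with the mean RPM over libraries, the fraction of libraries with a read and signal hexamers beside them. Per the text files the authors deposited, sites were derived from mm10 alignments and annotated with GENCODE M21. Not given in the sources used here: the aligner, the site caller and how reads matching several places were treated. The RPM unit was read from the values. Whole reads were recovered from the RPM steps: 100% of values were whole within 0.01 reads, with 11085428, 14855484 and 14064461 reads in the denominators. Reads carry no stated molecular identifiers, so they may not be independent molecules. The deposited fraction was used only to count sites seen in every library.

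The members and all lists were chosen with earlier results of these data known. Sites were assigned by strand and interval overlap to terminal exons, then other exons, then introns, then 1000 bases downstream, with protein-coding genes first; 80 tied sites were left out. For gene levels, a site shared by overlapping genes counted for each. Signals were 18 hexamers in 40 bases before the site. A-rich sites had at least 12 A, or 6 A in a row, in the 20 bases after. Proteins were translated from M21 coding sequence, a departure from the planned RefSeq proteins, with fingers searched as CX2-4CX12HX3-5H. Tandem sites were tested with limma 3.58.1 on log2(RPM + 0.05), with library as a block, a variance trend on mean level and Benjamini-Hochberg adjustment, in genes with 50 reads or more; a ratio on this scale understates differences of rarely used sites. On simulated data for this comparison over 5120 genes, 56 of 100 genes with a 4-fold ratio, 94 of 100 with 16-fold and 1 of 4920 with equal sites were called. Alternatives used edgeR 4.0.16 and DESeq2 1.42.0 on recovered reads. Named genes were the 12 highest, the role lists, the 8 highest called in each tandem direction, the 5 on each side of 1 RPM, the most variable, intronic and coding members, those without a signal, the extremes of finger number and the largest runs.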

Additional observations from a re-analysis of the deposited data

Results flagged for a closer look

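Numbered Zfp genes on the X chromosome lie outside the autosomal rule and outside the comparisons above, and 5 of them had more than 3 reads in both replicates that cover the X. Zfp275 averaged 21.1 RPM over replicates 1 and 2, with 220 and 333 reads. Zfp185 averaged 17.7 RPM, Zfp182 7.25 RPM, Zfp449 6.79 RPM and Zfp711 1.89 RPM. Zfp300 had 0 and 6 reads, and Zfp92 had none. Replicate 3 had no read at any of these genes.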

How the results depend on the processing

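The calls of tandem sites moved most, in members and in all genes tested alike. Against 39 distal and 14 proximal members, counts were 43 and 15 with no replicate block, so that leaving out the block added calls and lost none of the 39 and 14; 22 and 23 with TMM factors, which shift all genes; 71 distal of 178 tested with a site minimum of 1%, where 48.4% of all genes were called distal; 20 and 6 of 111 with 10%, beside 24.1% and 12.9% of all genes; and 9 proximal with edgeR, beside 11.4%. Leaving out 1 library gave 21 to 34 distal and 7 to 12 proximal members, the lowest of both without replicate 2; over all genes the shares were 22.6% to 28.8% and 10.8% to 12.6%, against 33.8% and 14.5%. The median log2 ratio was 0.30 with TMM factors and 0.54 with the 10% minimum, against 1.16. With the 1% minimum Zfp704, Zfp606 and Zfp326 reversed to 1.78, 1.61 and 1.17, and Zfp326 to 1.02 with sites of any terminal exon, an alternative added after seeing the data. The replicate numbers name libraries of 1 group, and each pair of sites was compared within its library. The median level of genes at 1 RPM or more was 9.07 RPM when scaled to autosomal reads, and 7.74 to 8.78 RPM when 1 library was left out. The KRAB pattern found 67 members in its narrow form and 127 when widened, a form added after seeing the data. The intronic and coding differences kept their sign under every alternative run. The cause of these shifts was not tested. Depth limits members near 1 RPM, such as Zfp521 with 40 reads over the 3 libraries.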

Other observations

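Finger linkers are encoded by a repeated stretch of DNA, so coding sites of members were searched for its core GAGAAACC in the 40 bases before and 20 after each site, on the RNA strand. It was found at 12 of 143 coding sites of members (8.39%) and at 9 of 3316 coding sites of other genes (0.271%). Over all windows of 60 bases in the coding part of member terminal exons it was found in 12.1%. These sites thus did not hold it more often than such exons of members in general, with or without a coding site. The search was chosen after the Zfp982 site had been seen.

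Promoters could be matched in the RefSeq table (GRCm38.p6) for 225 of 271 members and 68 of 84 genes under 1 RPM, over the 250 bases before and 50 after the start. The ratio of observed to expected CpG had a median of 0.645 in members and 0.514 in numbered genes under 1 RPM. Over the other genes at 1 RPM or more, of which 78.1% were matched, the median was 0.780. Unmatched promoters limit both comparisons, so no conclusion is drawn from either.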
